A study of Saccharomyces cerevisiae with 6 samples.

Results

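The yeast plasma membrane proton pump and its regulators were followed as 7 genes out of the 6696 open reading frames counted in each library. They are PMA1 and PMA2, which encode the pump, PMP1, PMP2 and PMP3, which encode small membrane proteins, and HSP30 and PTK2, which encode modulators. The genes were chosen by role, with their levels over the 4 groups of these libraries already known. Their values are therefore a description with no p-value, and where the fit's calls for them are mentioned, at an adjusted p under 0.05, they are no independent evidence.

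Pma1 is the P-type ATPase that expels protons from the cell, and the gradient it builds drives the uptake of nutrients and sets the membrane potential. It is one of the most abundant proteins of the plasma membrane and a main consumer of ATP, and glucose activates it through phosphorylation of its tail. Pma2 is a close copy of little known use in growing cells. Pmp1 and Pmp2 are tiny proteolipids that associate with the pump and stimulate it, Pmp3 is a small hydrophobic protein that affects membrane potential and salt tolerance, Hsp30 is a stress-induced membrane protein that restrains the pump, and Ptk2 is a kinase that activates it.

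RNA came from Saccharomyces cerevisiae BY4741, a haploid laboratory strain, and from its cyc8 deletion, in which kanMX4 replaces CYC8. Cyc8 forms a corepressor complex with Tup1 that silences many genes. Cells were kept 3 h in rich medium (2% peptone, 1% yeast extract) with 2% mannose or 2% glucose, and the 6 libraries form 4 groups: the deletion in mannose (1 library), the deletion in glucose (2), wild type in mannose (1) and wild type in glucose (2). The deletion is a single strain, and the labels do not say whether libraries of a group came from separate cultures, so the spread between them may be technical. A mannose group has no replicate error, and its standard errors borrow the spread of the glucose pairs. RNA was pooled over all cells of a culture, so fewer cells carrying a transcript and less of it per cell cannot be told apart.

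Libraries held 26195734 to 44084216 counts, and the deletion in mannose held fewest. Its library also differed in makeup, with 12.4% of its counts in its 10 most abundant genes, against 18.0% to 20.5% in the other libraries. CYC8 itself stood at 7.92 CPM (counts scaled to library size) in the deletion in mannose and 2.17 and 2.92 CPM in the deletion in glucose, against 197 CPM in wild type in mannose and 200 and 207 CPM in wild type in glucose. TUP1 fell in the deletion in glucose (log2 fold change −0.51 ± 0.08 SE, adjusted p = 4.85e-09, edgeR quasi-likelihood test with Benjamini-Hochberg adjustment). LEU2, MET17 and URA3, deleted in BY4741, were at 0 in all 6 libraries, which allows up to 0.0681 to 0.115 CPM from counting error alone. HIS3, of which BY4741 keeps a part, had 25.6 CPM in the deletion in mannose, 32.0 and 33.5 CPM in the deletion in glucose, 32.7 CPM in wild type in mannose, and 43.5 and 47.8 CPM in wild type in glucose.

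The sequences of PMP1 and PMP2 are shown because their genes are so short and so alike that the results turn on whether reads can tell them apart. PMP1 (YCR024C-A) is a single coding exon of 123 bases at chrIII:162945-163067 and PMP2 (YEL017C-A) one of 132 bases at chrV:122798-122929, both on the minus strand of sacCer3. The coding sequences are from RefSeq's R64 annotation, and capitals mark bases that differ from the partner or have no counterpart in it.
PMP1: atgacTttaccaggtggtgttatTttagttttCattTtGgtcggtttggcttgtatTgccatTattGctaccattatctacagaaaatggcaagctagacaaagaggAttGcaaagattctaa
PMP2: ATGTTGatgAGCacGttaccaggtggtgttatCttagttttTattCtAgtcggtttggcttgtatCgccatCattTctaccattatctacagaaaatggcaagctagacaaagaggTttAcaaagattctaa
The pair share 113 of 123 aligned bases (91.9%), and 39 of 40 aligned residues (97.5%). The longest shared run is 40 bases. No stretch of 50 bases of either gene occurs elsewhere in the genome, but of the stretches of 36 bases 5 of 88 in PMP1 and 5 of 97 in PMP2 do. The labels do not state the read length.

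The pattern over the groups had 3 parts. PMA1, PMP1 and PMP2 were lowest in the deletion in mannose, HSP30 was by far highest there, and PMA2, PMP3 and PTK2 moved less than 2-fold in any of the 4 pairwise comparisons. Where groups are said below not to overlap, each mannose group is 1 library. The share of all genes without overlap was not counted, so those statements only describe the values. Together the 7 genes took 0.380% of all counts in the deletion in mannose, 0.629% and 0.647% in the deletion in glucose, 1.09% in wild type in mannose, and 0.924% and 0.882% in wild type in glucose. PMA1 alone took 0.299% in the deletion in mannose, where HSP30 made up most of the rest, 0.599% and 0.615% in the deletion in glucose, 1.07% in wild type in mannose, and 0.893% and 0.852% in wild type in glucose.

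**Figure D1:**
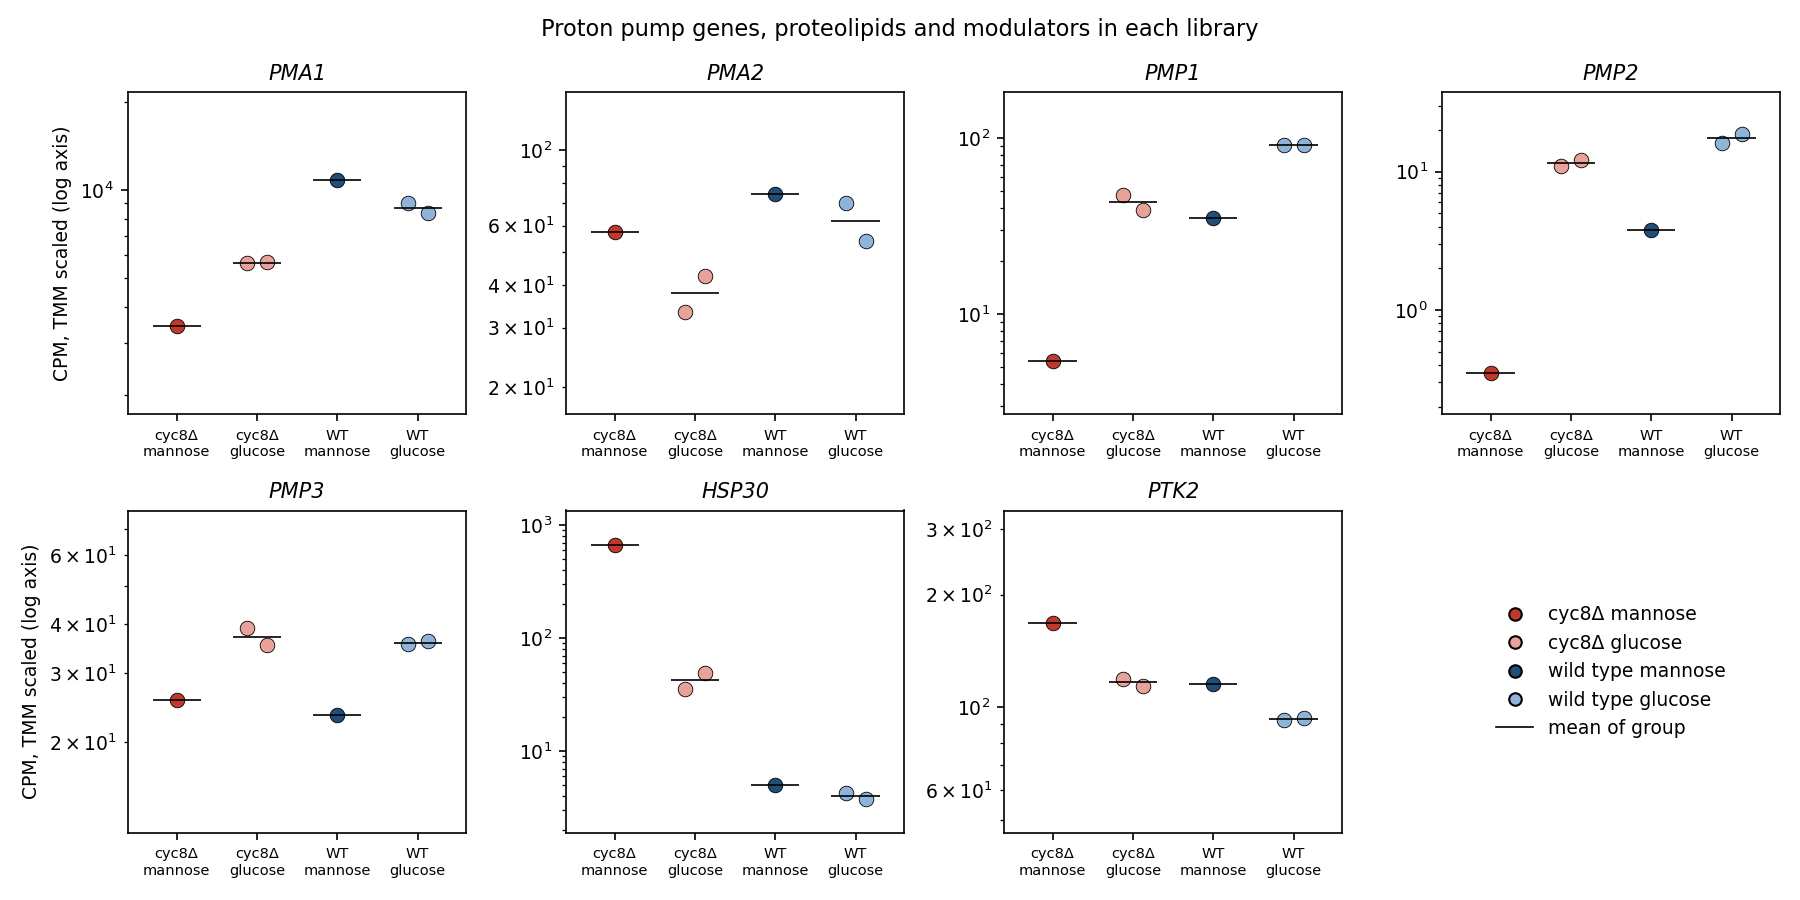
Level of each of the 7 genes in every library, in CPM scaled by TMM factors, on log axes that differ between panels. Points are libraries and the line is the group's mean, which in mannose is the single library. PMA1, PMP1 and PMP2 are lowest in the deletion in mannose, and HSP30 reaches 676 CPM there, against 3.80 to 49.3 CPM in the other 5 libraries.

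PMA1 (YGL008C, a single coding exon at chrVII:479910-482666, minus strand) encodes the pump itself. It stood at 3440 CPM in the deletion in mannose, 5620 and 5690 CPM in the deletion in glucose, 10800 CPM in wild type in mannose, and 9020 and 8350 CPM in wild type in glucose. The groups did not overlap, and both deletion groups lay below both wild type groups. By counts PMA1 ranked 56th of the 6146 genes tested in the deletion in mannose and 14th in both deletion libraries in glucose, against 9th in wild type in mannose and 11th in both wild type libraries in glucose. Its log2 fold change for the deletion against wild type was −0.62 ± 0.09 (SE) in glucose (means 5650 ± 51.0 and 8680 ± 472 CPM, SD, n = 2 each). In mannose the same comparison gave −1.65 ± 0.13, a level 3.13-fold lower, and −2.115 ± 0.117 with GC and length trends removed.

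In mannose PMA1 was lower than in glucose in the deletion and higher in wild type. Against glucose the log2 fold change was −0.72 ± 0.11 in the deletion and 0.31 ± 0.11 in wild type. With GC and length trends removed the values were −1.22 ± 0.10 in the deletion and 0.20 ± 0.10 in wild type, and wild type gave 0.26 ± 0.14 without wild type glucose replicate 2. The wild type value was not called in either of those settings.

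PMA2 (YPL036W, chrXVI:482843-485686, plus strand, a single coding exon) encodes the second isoform. It had 57.5 CPM in the deletion in mannose, 33.3 and 42.7 CPM in the deletion in glucose, 74.4 CPM in wild type in mannose, and 70.0 and 53.9 CPM in wild type in glucose. The deletion in glucose was lowest and did not overlap with any other group, while the deletion in mannose lay between the wild type glucose libraries. In glucose the log2 fold change for the deletion against wild type was −0.70 ± 0.09, in mannose −0.37 ± 0.13. Mannose against glucose gave 0.59 ± 0.11 in the deletion and 0.27 ± 0.10 in wild type, and the wild type value dropped to 0.09 ± 0.14 without wild type glucose replicate 2. With GC and length trends removed the deletion gave 0.04 ± 0.11 for mannose against glucose, and −0.88 ± 0.12 against wild type in mannose.

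The PMA2 values carry a limit set by sequence. PMA1 and PMA2 are identical at 82.7% of aligned bases and 90.0% of aligned residues, with a longest shared run of 74 bases. Of the stretches of 50 bases in PMA1, 1.40% occur elsewhere, as do 1.36% of those in PMA2. For stretches of 36 bases the shares are 3.09% and 2.99%, and the read length is not known. PMA2 counts came to 1.67% of PMA1 counts in the deletion in mannose, 0.592% and 0.751% in the deletion in glucose, 0.690% in wild type in mannose, and 0.776% and 0.646% in wild type in glucose. Those shares are of the same size as the 1.40% of PMA1 that reads of 50 bases could not place, or the 0.702% if such reads were divided evenly. The rule for counting ambiguous reads was not given in the sources used here, so how much of PMA2 is its own transcript was not tested, and its level and its changes are uncertain.

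PMP1 had 5.37 CPM in the deletion in mannose, 47.3 and 39.0 CPM in the deletion in glucose, 34.8 CPM in wild type in mannose, and 91.0 and 90.5 CPM in wild type in glucose. The deletion in mannose lay far below every other library, wild type in glucose lay above all of them, and no groups overlapped. The log2 fold change for the deletion against wild type was −1.07 ± 0.08 in glucose and −2.70 ± 0.16 in mannose. Mannose against glucose gave −3.00 ± 0.15 in the deletion, 8.03-fold lower, and −1.38 ± 0.11 in wild type, 2.60-fold lower.

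PMP2 was likewise lowest in the deletion in mannose and highest in wild type in glucose. It had 0.352 CPM in the deletion in mannose, 11.0 and 12.2 CPM in the deletion in glucose, 3.78 CPM in wild type in mannose, and 16.2 and 18.8 CPM in wild type in glucose. The lowest value rests on 8 counts, for which the exact 95% Poisson interval, covering counting error only, is 3.45 to 15.8 counts or 0.152 to 0.693 CPM. Both mannose libraries lay below all 4 glucose libraries, and the groups did not overlap. The log2 fold change for the deletion against wild type was −0.59 ± 0.11 in glucose and −3.41 ± 0.41 in mannose. Mannose against glucose gave −5.03 ± 0.32 in the deletion and −2.21 ± 0.17 in wild type.

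Per kilobase of the counted length, PMP1 exceeded PMP2 16.7-fold in the deletion in mannose, 4.73-fold and 3.50-fold in the deletion in glucose, 10.1-fold in wild type in mannose, and 6.16-fold and 5.28-fold in wild type in glucose. The ratio was thus larger in both mannose libraries than in the 4 glucose libraries. The value of 16.7 rests on 8 counts of PMP2, and each mannose group is 1 library.

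PMP3 (YDR276C, 168 coding bases at chrIV:1013476-1013643, minus strand) is no close relative of that pair, with 9 of 40 residues shared with Pmp1 and 10 of 43 with Pmp2. It had 25.6 CPM in the deletion in mannose, 39.1 and 35.3 CPM in the deletion in glucose, 23.4 CPM in wild type in mannose, and 35.5 and 36.3 CPM in wild type in glucose. Both mannose libraries were lower than the 4 glucose libraries, and the genotypes overlapped in glucose. Mannose against glucose gave −0.53 ± 0.11 in the deletion and −0.62 ± 0.11 in wild type. The deletion against wild type gave 0.05 ± 0.08 in glucose and 0.13 ± 0.13 in mannose, and both signs turned under other scalings.

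Gene length moved with the changes in mannose. The 53 tested genes of at most 180 coding bases had a median log2 fold change of −0.53 in the deletion and −0.57 in wild type for mannose against glucose, where the 2991 genes over 1200 bases had 0.05 and −0.01. Among the 53, PMP2 was the 5th lowest in the deletion and the 9th in wild type, and PMP1 the 9th and the 12th. PMP3, at 27th, was itself the median gene in the deletion, and it stood 25th in wild type. With trends over GC content and coding length removed from the counts, mannose against glucose gave PMP1 −1.67 ± 0.15 in the deletion and −0.59 ± 0.10 in wild type, and PMP2 −3.98 ± 0.34 and −1.60 ± 0.16. PMP3 kept only −0.15 ± 0.10 in the deletion and −0.31 ± 0.10 in wild type. In glucose the comparison of the deletion with wild type hardly moved for PMP1 (−1.04 ± 0.08) and PMP2 (−0.61 ± 0.11), and the median of the 53 short genes there was 0.05. In mannose that comparison gave −2.11 ± 0.16 for PMP1 and −2.99 ± 0.42 for PMP2 with trends removed. The part that length and library makeup have in the mannose values was not tested.

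**Figure D2:**
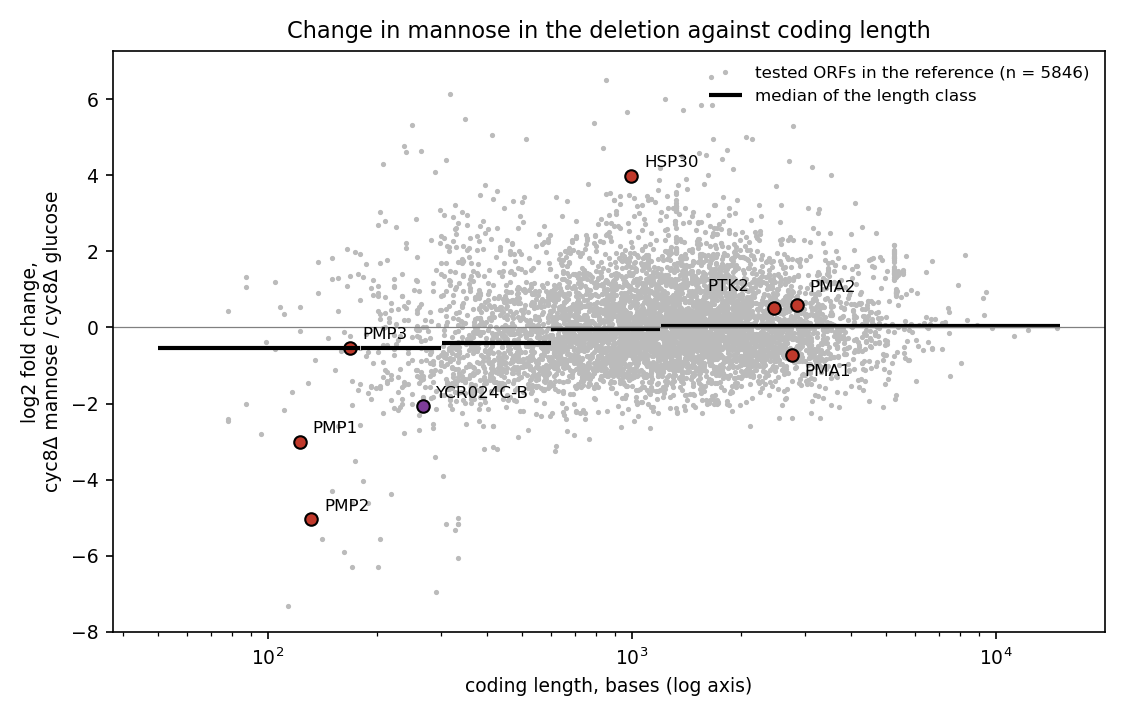
Log2 fold change of the deletion in mannose against the deletion in glucose (y axis) by coding length in bases (x axis, log scale) for 5846 tested open reading frames found in the reference. Black bars are medians of 5 length classes. PMP1 and PMP2 lie at −3.00 and −5.03, below the median of −0.53 for genes of at most 180 bases, which is the value of PMP3 itself. The neighbour of PMP1, YCR024C-B, is also marked.

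The open reading frame next to PMP1 moved with it. YCR024C-B, of no stated function in the files, lies on the same strand at chrIII:162599-162865, 79 bases beyond the end of PMP1. It had 720 counts in the deletion in mannose, 4789 and 5018 in the deletion in glucose, 3960 in wild type in mannose, and 10258 and 10966 in wild type in glucose. It fell in the deletion against wild type in glucose (−0.97 ± 0.08, adjusted p = 1.72e-20, edgeR quasi-likelihood test with Benjamini-Hochberg adjustment) and likewise in mannose (−1.69 ± 0.12). With the length and GC trends removed those values were −0.67 in glucose and −0.91 in mannose. Mannose against glucose gave YCR024C-B −2.06 ± 0.11 in the deletion and −1.33 ± 0.10 in wild type, and −0.67 and −0.43 with the same trends removed. Its counts were 5.90 times those of PMP1 in the deletion in mannose, 3.09 and 3.03 times in the deletion in glucose, 2.94 times in wild type in mannose, and 3.00 and 2.70 times in wild type in glucose. The ratio thus lay between 2.70 and 3.09 in 5 of the 6 libraries and was higher in the deletion in mannose. Whether both are parts of 1 transcript was not tested.

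HSP30 (YCR021C, chrIII:156109-157107, minus strand, a single coding exon) encodes the membrane protein that restrains the pump. It had 676 CPM in the deletion in mannose, 35.4 and 49.3 CPM in the deletion in glucose, 5.05 CPM in wild type in mannose, and 4.23 and 3.80 CPM in wild type in glucose. Both deletion groups lay far above wild type, and the single wild type mannose library lay slightly above those in glucose. In rank by counts it stood 303rd of 6146 in the deletion in mannose, 2840th and 2268th in the deletion in glucose, and between 5154th and 5283rd in the wild type libraries. The log2 fold change for the deletion against wild type was 3.41 ± 0.11 in glucose, or 10.6-fold, and 7.07 ± 0.16 in mannose, or 134-fold. Mannose against glucose gave 3.99 ± 0.10 in the deletion, or 15.9-fold, and 0.33 ± 0.17 in wild type, which was not called.

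PTK2 (YJR059W, chrX:545787-548243, plus strand, a single coding exon) encodes the activating kinase. It had 168 CPM in the deletion in mannose, 119 and 114 CPM in the deletion in glucose, 115 CPM in wild type in mannose, and 92.2 and 93.4 CPM in wild type in glucose. The deletion in mannose was highest and wild type in glucose lowest, with wild type in mannose inside the range of the deletion in glucose. The log2 fold change for the deletion against wild type was 0.33 ± 0.07 in glucose and 0.54 ± 0.10 in mannose. Mannose against glucose gave 0.52 ± 0.09 in the deletion and 0.31 ± 0.09 in wild type, where leaving out wild type glucose replicate 1 or 2 ended the call at 0.30 ± 0.13 and 0.32 ± 0.13. With the GC and length trends removed, 0.08 ± 0.08 was left in the deletion for mannose, and 0.14 ± 0.09 for the deletion against wild type in mannose.

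**Figure D3:**
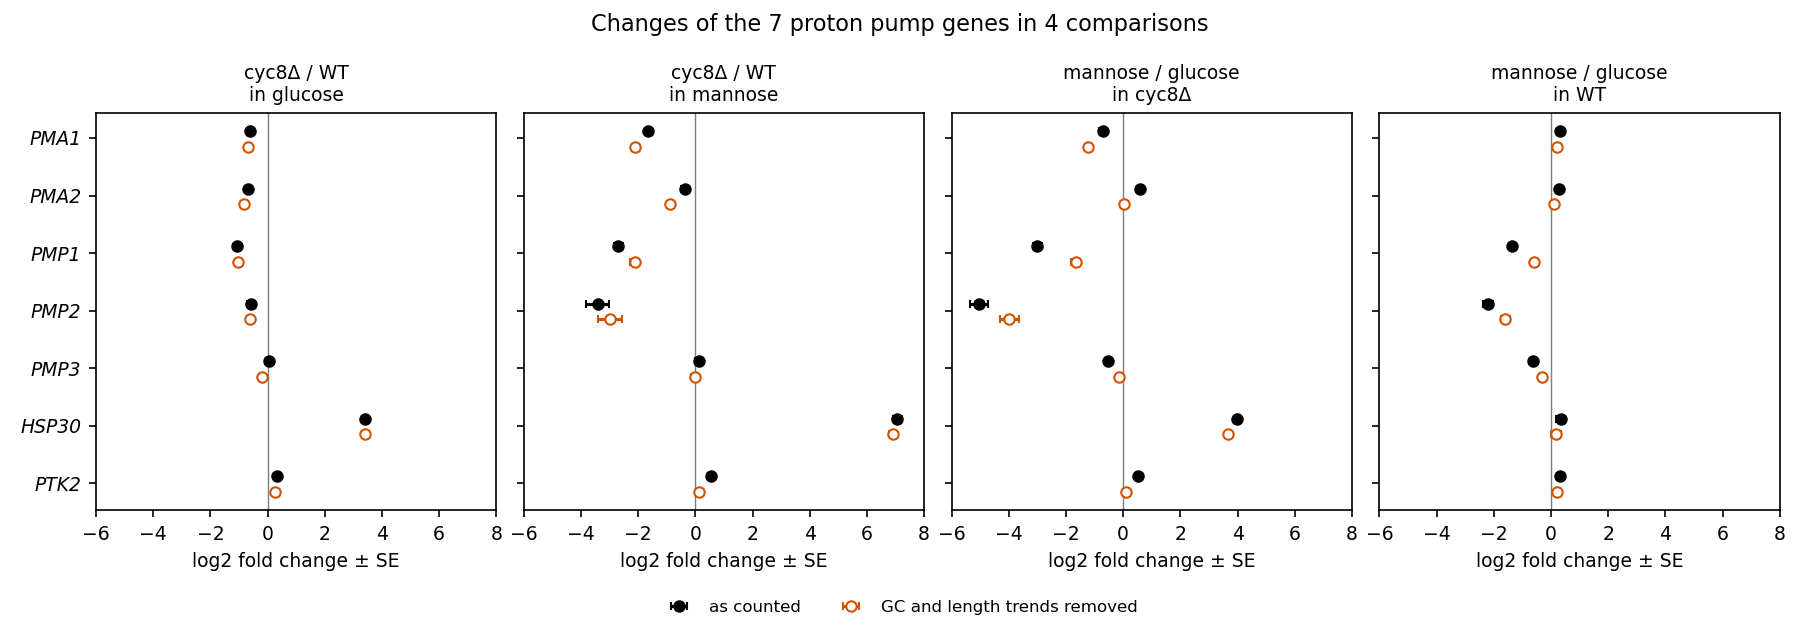
Log2 fold changes ± SE (x axis) of the 7 genes in 4 comparisons, named above each panel with the numerator first. Filled points are the counts as deposited and open points the same fit with GC and length trends removed. HSP30 stands far right wherever the deletion is the numerator, at 3.41 in glucose and 7.07 in mannose, and the mannose values of PMP1 and PMP2 shrink toward 0 when trends are removed.

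Levels of different genes were compared as CPM per kilobase of the counted length. In wild type in glucose the order was PMA1 (3310 and 3060 CPM per kilobase), PMP1 (978 and 973), PMP3 (257 and 263), PMP2 (159 and 184), PTK2 (38.0 and 38.5), PMA2 (24.9 and 19.2) and HSP30 (4.37 and 3.92). No neighbours in that order overlapped. In the deletion in glucose HSP30, at 36.5 and 50.8 CPM per kilobase, overlapped with PTK2 at 49.2 and 47.1, above PMA2 at 11.8 and 15.2. In the deletion in mannose HSP30, at 698 CPM per kilobase, was second only to PMA1, at 1260, and PMP2, at 3.45, was last. The ratio of PMA1 to HSP30 per kilobase was 1.81 in the deletion in mannose and 56.4 and 41.0 in the deletion in glucose, against 759 in wild type in mannose and 757 and 780 in wild type in glucose. For the 3 PMP genes the counted length leaves out 10 codons of 41, 44 and 56, which raises their values per kilobase relative to long genes.

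So many genes differed between these groups that a count of members carries little by itself. In the deletion against wild type in glucose 2 of the 7 were called higher and 4 lower at an adjusted p under 0.05, where 30.1% of the 6146 genes tested were called higher and 37.8% lower. In mannose the same comparison gave 2 higher and 4 lower, beside 38.3% and 41.1% of all genes. For mannose against glucose 3 were higher and 4 lower in the deletion, beside 37.6% and 39.7%, and 3 higher and 3 lower in wild type, beside 20.5% and 16.9%. For the difference between the genotypes in their mannose response, 1 was higher and 3 lower, beside 29.7% and 34.4%. Since these contrasts bear on the choice of the genes, nothing is read from the counts, and the comparisons share libraries. The median log2 fold change of all tested genes was −0.08 in glucose and −0.07 in mannose for the deletion against wild type. It was −0.04 in the deletion and 0.02 in wild type for mannose against glucose, and −0.08 for the difference of the responses.

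The response to mannose differed most between genotypes for HSP30, PMP2 and PMP1. The log2 difference, deletion minus wild type, was 3.66 ± 0.19 for HSP30, −2.82 ± 0.45 for PMP2, −1.62 ± 0.18 for PMP1 and −1.03 ± 0.16 for PMA1. It was 0.33 ± 0.15 for PMA2, 0.21 ± 0.13 for PTK2 and 0.08 ± 0.16 for PMP3. The signs of those last 3 turned in at least 1 other setting. PMA2 was not called as fitted or with trends removed (−0.04 ± 0.15), but was called in 4 settings, at 0.33 with DESeq2 factors, 0.30 with no filter, 0.51 without wild type glucose replicate 2 and 0.48 without deletion glucose replicate 2.

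Genes whose profile over the 6 libraries lay nearest to each member's were found among 5227 tested genes with a standard name, by the Euclidean distance of log2 CPM centred on each gene's mean. No GC or length trend was removed from these profiles, and the part that length has in the matches was not tested. HSP30 was nearest to GRE1 (distance 0.60), SIP18 (0.65) and FDH1 (0.74). GRE1 and SIP18 encode hydrophilins induced by osmotic stress and FDH1 formate dehydrogenase. GRE1 had 154 CPM in the deletion in mannose, 11.4 and 16.6 CPM in the deletion in glucose, 1.11 CPM in wild type in mannose, and 1.20 and 1.25 CPM in wild type in glucose. PMP1 was nearest to ERV14 (0.19), a cargo receptor of the early secretory pathway, DFG10 (0.35) and APQ12 (0.54). PMP2 was nearest to TOM7 (1.11), a small subunit of the mitochondrial import channel, LSM2 (1.59) and ERV14 (1.66), which are much longer distances than those of the other members. PMA1 was nearest to SWD3 (0.11), RPL2A (0.11), a ribosomal protein gene with a near-identical copy whose counts are therefore uncertain, and RNA1 (0.12). PTK2 was nearest to FPS1 (0.10), the glycerol channel, PAR32 (0.10) and DAP2 (0.11), PMP3 to CDC53 (0.11), ASI2 (0.20) and RAD61 (0.21), and PMA2 to ARR1 (0.28), PRM2 (0.29) and SPS18 (0.36).

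**Figure D4:**
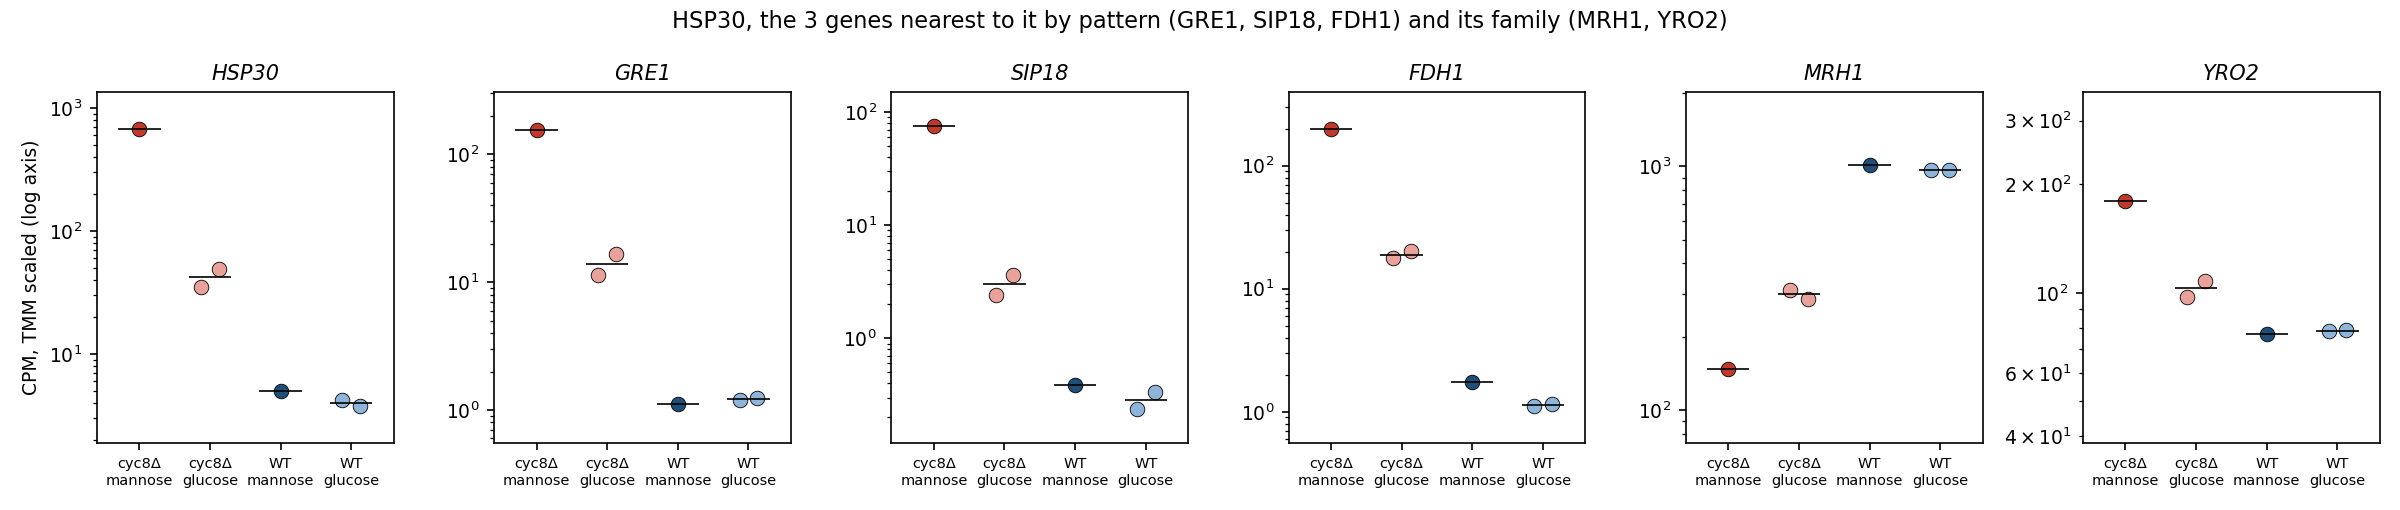
Levels in every library (CPM, log axes that differ between panels) of HSP30, of the 3 genes nearest to it in profile, GRE1, SIP18 and FDH1, and of its relatives MRH1 and YRO2. Points are libraries and lines group means. GRE1, SIP18 and FDH1 are highest in the deletion in mannose like HSP30, YRO2 shows smaller steps, and MRH1 is lowest there.

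A set of 7 short motifs was searched on both strands in the 300 bases before each start codon. They were ACCCANACA for Rap1, CTTCC for Gcr1, AGGGG for the stress response element, CCCCNC for Mig1, TGACGT for Sko1, GAANNTTC for the heat shock element and CGGANNA for Rgt1. The windows of PMA1 and HSP30 held none of these motifs. Bases further upstream were not searched, so the absence covers these 300 bases only. CTTCC was in 4 of the 7 windows and in 45.5% of all 6007, AGGGG in 3 and in 22.2%, CGGANNA in 2 and in 26.9%, and CCCCNC in 1 and in 13.6%. The other motifs were in none of the 7 and in 1.68% (ACCCANACA), 7.24% (TGACGT) and 11.5% (GAANNTTC) of all windows. PMP1 held 5 matches to CTTCC and PMP2 held 6, with no overlap with another of the motifs, and PMP3 and PMA2 held 4 and 1. Of all windows 8 (0.133%) held at least 5 and 1 (0.0166%), that of PMP2, at least 6, limits set after these numbers were seen. The 30 bases with most matches before PMP1 (chrIII:163197-163226) and PMP2 (chrV:123000-123029), 5′ to 3′ on the gene's strand from R64, show the spacing, with CTTCC or its complement GGAAG in capitals.
PMP1: aGGAAGacgctacacactttgaaGGAAGag
PMP2: CCCTTCCagttttttctctttcgtcCTTCC
The PMP2 stretch opens within a pair of adjacent matches, the first of which starts 3 bases before it. A match is a description of the letters, not of binding.

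Genes that act with or beside the pump were taken as 9 lists of 69 genes, all of which passed the filter on low counts. In the deletion against wild type in glucose 25 rose, 23 fell and 21 were not called, with a median log2 fold change of −0.0043, where 30.1% of all genes tested rose and 37.8% fell. In mannose 29 rose and 28 fell (median 0.04), where 38.3% and 41.1% of all genes did. For mannose against glucose 27 rose and 25 fell in the deletion (median 0.0042, 37.6% and 39.7% of all genes), and 17 rose and 7 fell in wild type (median 0.08, 20.5% and 16.9% of all genes). These shares, and the medians of all genes given above, stand beside the counts of each list that follow, and no list is called particular. The adjusted p of the genes named below are from the edgeR quasi-likelihood test over all 6146 genes with Benjamini-Hochberg adjustment. The lists were chosen with earlier results of these data known, so these p are no independent evidence. Each mannose group is a single library, so every adjusted p below that involves mannose rests on the spread of the glucose pairs. Such a p holds no variation between mannose cultures and does not show a replicated effect.

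Kinases and the phosphatase that act on the pump or on its glucose signalling (PTK1, HRK1, YCK1, YCK2, GLC7 and REG1) were split. In the deletion in glucose 3 rose and 1 fell, and in mannose 4 rose and 1 fell against wild type. PTK1, the relative of PTK2, had 414 CPM in the deletion in mannose, 102 and 99.1 CPM in the deletion in glucose, 42.5 CPM in wild type in mannose, and 34.1 and 34.5 CPM in wild type in glucose. It rose by 1.55 ± 0.08 in glucose (adjusted p = 8.9e-34) and by 3.28 ± 0.11 in mannose (adjusted p = 5.59e-46), and 0.68 and 1.86 remained with GC and length trends removed. HRK1, a kinase that also activates the pump, rose by 0.80 ± 0.08 (adjusted p = 1.56e-16) and 2.46 ± 0.11 (adjusted p = 4.76e-37). REG1, which directs the phosphatase Glc7 in glucose repression, rose by 0.34 ± 0.08 (adjusted p = 5.56e-05) and 1.63 ± 0.11 (adjusted p = 2.9e-25), and the casein kinase YCK2 fell by 0.46 (adjusted p = 2.91e-08) and 1.04 (adjusted p = 4.23e-15). Mannose against glucose in the deletion gave 4 rises and 2 falls, and in wild type 1 and 1.

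Of 7 genes for the export and delivery of Pma1, 5 fell and 2 rose in the deletion in both sugars (medians −0.31 in glucose and −0.83 in mannose), where 37.8% of all genes fell in glucose and 41.1% in mannose. PSG1, which stabilises Pma1 on its way to the surface, was among the 5 in glucose and was not called with GC and length trends removed (−0.11 ± 0.07). SOP4, an endoplasmic reticulum protein needed for export of Pma1, had 11.3 CPM in the deletion in mannose, 56.4 and 47.6 CPM in the deletion in glucose, 49.2 CPM in wild type in mannose, and 69.8 and 72.0 CPM in wild type in glucose. It fell in mannose against glucose in both genotypes, by 2.20 in the deletion (adjusted p = 9.26e-29) and 0.53 in wild type (adjusted p = 1.02e-05). AST1, which helps sort Pma1 to the cell surface, fell in the deletion by 0.44 in glucose (adjusted p = 2.89e-05) and by 0.91 in mannose (adjusted p = 3.28e-08), while its relative AST2 rose by 1.37 ± 0.16 in mannose (adjusted p = 1.46e-12). EPS1, 1 of the 2 that rose, belongs to the endoplasmic reticulum's quality control rather than to export. It rose by 0.31 ± 0.08 in glucose (adjusted p = 0.000211).

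Relatives of the small and stress-induced proteins did not move as one. The Pmp3-like SNA2, SNA3 and SNA4 all rose in the deletion in mannose against wild type, by 1.37 ± 0.20, 1.39 ± 0.12 and 1.13 ± 0.16 (adjusted p = 3.95e-09, 2.63e-19 and 1.85e-09). With GC and length trends removed SNA3 gave 0.43 and SNA4 0.69 there. In glucose SNA2 and SNA3 rose, by 1.37 ± 0.15 (adjusted p = 6.74e-14) and 0.62 ± 0.08 (adjusted p = 2.14e-10), but SNA3 turned to −0.28 in glucose with those trends removed. Both relatives of HSP30 changed in the deletion, in opposite directions. MRH1 had 147 CPM in the deletion in mannose, 311 and 287 CPM in the deletion in glucose, 1010 CPM in wild type in mannose, and 967 and 968 CPM in wild type in glucose, and fell by 1.70 in glucose (adjusted p = 1.07e-34) and by 2.79 in mannose (adjusted p = 6.93e-38). YRO2 rose by 0.39 ± 0.07 in glucose (adjusted p = 2.82e-06) and by 1.23 ± 0.11 in mannose (adjusted p = 8.23e-19).

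**Figure D5:**
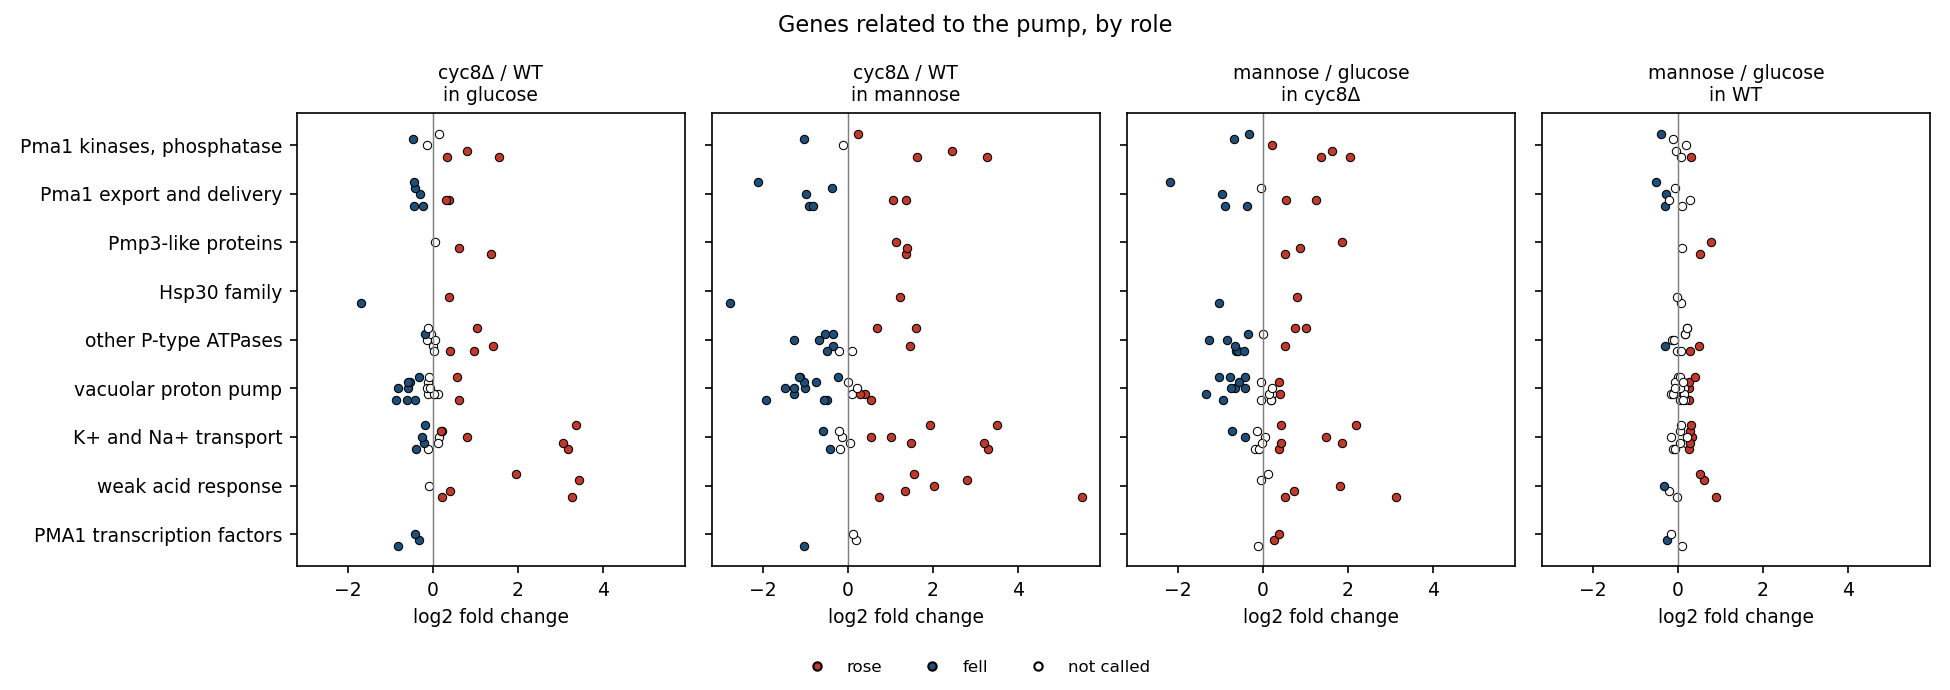
Log2 fold change (x axis) of each of the 69 related genes, by list (y axis), in 4 comparisons named above each panel with the numerator first. Red points rose and blue points fell at an adjusted p under 0.05, and white points were not called. The weak acid list lies to the right of 0 in the deletion against wild type in mannose, where 6 of 6 rose, and most genes of the vacuolar pump lie to the left, where 12 of 18 fell.

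Among the 11 other P-type ATPases 4 rose and 1 fell in the deletion in glucose, and 3 rose and 6 fell in mannose. PMC1, the vacuolar calcium pump, rose by 1.42 ± 0.07 in glucose (adjusted p = 3.07e-32), and SPF1, an ATPase of the endoplasmic reticulum, fell by 1.27 in mannose (adjusted p = 4.83e-18). Of 18 genes of the vacuolar proton pump and its assembly, which acidifies the vacuole, 2 rose and 8 fell in glucose (median −0.12) and 3 rose and 12 fell in mannose (median −0.66). The assembly factor VOA1 fell by 0.88 (adjusted p = 4.06e-19) and 1.94 (adjusted p = 2.49e-29), and by 0.46 and 1.04 with trends removed, and the proteolipid subunit VMA3 fell by 1.49 in mannose (adjusted p = 5.54e-23). The catalytic subunit VMA1 rose by 0.61 ± 0.08 in glucose (adjusted p = 6e-10).

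Among 13 genes of potassium and sodium transport, which depends on the membrane potential the pump makes, 6 rose and 4 fell in the deletion in glucose, and 7 rose and 2 fell in mannose. The sodium pumps ENA1 and ENA2 rose by 3.38 ± 0.09 (adjusted p = 1.13e-53) and 3.18 ± 0.09 (adjusted p = 6.13e-52) in glucose. They are near-identical, with 88.5% and 100% of their stretches of 50 bases found elsewhere, so they are uncertain as single genes. Another sodium pump gene of the list has 91.2% of its stretches elsewhere, so the rises counted for this list may share reads. HAL5, a kinase that stabilises potassium transporters, rose by 2.20 ± 0.09 in mannose against glucose in the deletion (adjusted p = 7.04e-41), as did the potassium transporter TRK2, by 1.86 ± 0.09 (adjusted p = 2.95e-33). In the weak acid response 5 of 6 rose in the deletion in glucose (median 1.18) and 6 of 6 in mannose (median 1.8). SPI1, a cell wall protein induced by weak acids, had 536 CPM in the deletion in mannose, 64 and 58 CPM in the deletion in glucose, 11.7 CPM in wild type in mannose, and 5.59 and 6.96 CPM in wild type in glucose, a rise against wild type of 5.51 ± 0.13 in mannose (adjusted p = 3.55e-58). PDR12, the weak acid exporter, was not called in glucose (−0.09 ± 0.08, adjusted p = 0.312) and rose by 2.04 ± 0.12 in mannose (adjusted p = 3.34e-29). TPO2 and TPO3, polyamine exporters with 41.3% and 40.8% of their stretches of 50 bases found elsewhere in the genome, rose by 3.45 ± 0.08 (adjusted p = 9.46e-58) and 1.95 ± 0.08 (adjusted p = 3.81e-38) in glucose.

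The 3 transcription factors known for PMA1 and for glycolytic and ribosomal protein genes all fell in the deletion in glucose. RAP1 had 78.3 CPM in the deletion in mannose, 81.8 and 86.9 CPM in the deletion in glucose, 160 CPM in wild type in mannose, and 150 and 149 CPM in wild type in glucose. It fell by 0.83 in glucose (adjusted p = 6.15e-18) and by 1.03 in mannose (adjusted p = 3.55e-15), and in neither genotype was it called for mannose. GCR1 and GCR2 fell in glucose by 0.32 (adjusted p = 0.000184) and 0.42 (adjusted p = 4.26e-06), and GCR1 was not called with trends removed (−0.15 ± 0.07). In mannose against wild type they were not called (0.19 ± 0.11, adjusted p = 0.103, and 0.13 ± 0.12, adjusted p = 0.317).

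Of the other neighbours tested, the largest rises in the deletion against wild type in glucose were those of MTH1 and MNN14. MTH1, which encodes a repressor of hexose transporter genes that lies 757 bases from PMP3 on the same strand, rose by 4.67 ± 0.10 in the deletion in glucose (adjusted p = 5.17e-64, edgeR quasi-likelihood test with Benjamini-Hochberg adjustment) where PMP3 had 0.05 ± 0.08. MNN14, of protein mannosylation, lies 2267 bases from PTK2 and rose by 3.59 ± 0.09 (adjusted p = 4.21e-57). LEU1, next to PMA1, fell by 1.00 in glucose (adjusted p = 3.8e-21) and rose by 1.33 ± 0.09 in mannose against glucose in the deletion (adjusted p = 1.95e-24), where PMA1 was lower.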

How the data were processed

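Stranded libraries of ribosomal RNA-depleted total RNA were sequenced, per the labels' protocols. The authors deposited raw counts per open reading frame with no header, beside a length column that is 10 codons short of the reference's coding length in 5969 of the 6007 matched. CASAVA 1.8, Bowtie2 2.3.4.2, TopHat2 2.0.9 and sacCer3 are named in the submitters' processing notes; the counter, its strand setting and its rule for ambiguous reads were not given in the sources used here.

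Counts were fitted with edgeR 4.0.16 in R 4.3.3: filterByExpr (550 genes left out, 6146 tested, all 7 members among them), TMM scaling, 1 mean per group over all 6 libraries, quasi-likelihood F tests and Benjamini-Hochberg adjustment. Residual degrees of freedom were 2, which the glucose replicates supply, and prior ones 86.7. CPM are TMM scaled, and each standard error was derived from the fold change and its F statistic. GC and length trends were smoothed per library with mgcv 1.9.3. Alternatives were DESeq2 1.42.0, other scalings, no filter, each glucose library left out, a replicate block and, added after seeing the data, the 4 glucose libraries alone. A floor of 3 counts stands for a count of 0.

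The members and the gene lists were chosen with earlier results of these data known. Named were the members, the strain check genes, any gene of a list of 8 or fewer, the 2 largest rises and falls of longer lists, the nearest 2 open reading frames on each side of a member, and the 3 nearest profiles. Sequences come from RefSeq's R64 genome.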

Additional observations from a re-analysis of the deposited data

Results flagged for a closer look

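For PMA1 mannose against glucose ran in opposite directions in the deletion and in wild type, with a log2 difference of −1.03. The wild type rise (0.31 ± 0.11) rests on 1 mannose library. It was not called with GC and length trends removed (0.20 ± 0.10) or without wild type glucose replicate 2 (0.26 ± 0.14). The fit across all genes called this difference, but the gene was chosen with these values known, so no p is given for it.

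The effect of mannose against glucose differed between the deletion and wild type, by the interaction test of edgeR with Benjamini-Hochberg adjustment, for 45 of the 69 related genes, 19 higher and 26 lower, where 29.7% of all genes were higher and 34.4% lower. Values are given for the 32 that could be named, which in the longer lists are the largest differences. Those lists name at most 2 genes per direction, so the names do not show the balance of a list. Their median log2 differences were −0.50 for other P-type ATPases, −0.32 for the vacuolar pump and −0.03 for cation transport, beside −0.08 for all genes. The values that follow are log2 differences, deletion minus wild type, and each rests on 1 library per mannose group. The lists were chosen with earlier results of these data known, so the calls are no independent evidence. Among kinases and their partners they were 1.73 for PTK1, 1.66 for HRK1, 1.29 for REG1 and −0.58 for YCK2. Among genes for the export, delivery and quality control of Pma1 they were 0.98 for AST2, 0.76 for EPS1, −0.47 for AST1, −0.67 for EXP1, −0.60 for SFB3 and −1.67 for SOP4. The relatives of the small proteins and of HSP30 gave 0.77 for SNA3, 1.07 for SNA4, −1.09 for MRH1 and 0.84 for YRO2. Other P-type ATPases gave 0.81 for DNF2, 0.55 for PCA1, −1.14 for SPF1 and −0.88 for CCC2, and the vacuolar pump −1.17 for VMA7 and −1.06 for VOA1. Cation transport gave 2.12 for HAL5, 1.68 for TRK2, −0.78 for NHX1 and −0.43 for NHA1. The weak acid response gave 0.52 for HAA1, 0.94 for WAR1, 2.13 for PDR12, 2.24 for SPI1, −0.65 for TPO2 and −0.40 for TPO3, and the transcription factors 0.51 for GCR1 and 0.55 for GCR2. With GC and length trends removed the differences for EXP1 (−0.04), DNF2 (0.19) and PCA1 (0.07) no longer passed. Nor did AST1 (−0.39) and NHA1 (−0.37) without wild type glucose replicate 1, TPO3 without wild type glucose replicate 2 (−0.34) or deletion glucose replicate 2 (−0.18), AST1 (−0.47) and TPO3 (−0.40) with DESeq2, or PCA1 (0.31), HAA1 (0.28), GCR1 (0.27) and GCR2 (0.30) with upper-quartile factors.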

How the results depend on the processing

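Of 329 alternative values of the members' log2 fold changes, 303 kept direction and side of the threshold, 13 lost the call, 4 gained one, all of PMA2 for the difference between the mannose responses, and 9 changed sign. PMA2 lost its call with DESeq2 in 3 comparisons: mannose in either genotype and the deletion against wild type in mannose. The sign changes were small values. PMP3 for the deletion against wild type gave −0.029 (glucose) and −0.19 (mannose) with upper-quartile factors, and −0.19 and −0.025 with GC and length trends removed. For the difference between the mannose responses PMP3 gave −0.16 (upper-quartile) and values between −0.034 and 0.10 with 1 deletion glucose library left out, PTK2 −0.036 (upper-quartile) and −0.13 (trends removed), and PMA2 −0.043 (trends removed). Of 1209 alternatives for 127 values of other genes 1187 kept their call, 21 lost it and 1 changed sign, SNA3 in glucose at −0.28 with trends removed. Mannose in wild type is the weakest comparison: it called 2300 genes and 24 related genes, 1529 genes with DESeq2, and with each glucose library left out 1516 to 2734 genes and 10 to 30 related genes, with 1516 and 10 without wild type glucose replicate 1 and 1520 and 11 without replicate 2. Upper-quartile factors lowered the median of all genes to −0.30 for mannose in the deletion, −0.39 for the deletion against wild type in mannose and −0.33 for the difference of the responses, and the share of calls that were higher to 37.4%, 37.1% and 33.0%, against 48.6%, 48.2% and 46.3%. With trends removed that share in the deletion against wild type in glucose was 55.7%, against 44.3%. The glucose replicate numbers did not pair the libraries (correlation of deviations −0.05). A replicate block called 3921 genes and 47 related ones, against 4173 and 48, and the 4 glucose libraries alone 4079 and 49. Depth limits PMP2 in the deletion in mannose, at 8 counts.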
